A study of Mus musculus with 17 samples.

Results

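Among the mutations called in mouse pancreatic tumours, 5 genes have known parts in nutrient signalling, amino acid transport, growth control, chromatin and DNA repair: Mtor, Slc7a7, Smad3, Tet3 and Wrn. They were chosen by name because each carried a call, so their presence in the table is a description and has no test. They account for 5 of the 209 genes, 5 of the 258 distinct sites and 8 of the 390 calls analysed. A call is 1 site in 1 tumour at which the tumour differed from the control of the same mouse.

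The study asked how mutations that inactivate the glucagon receptor gene GCGR promote those pancreatic neuroendocrine tumours that start from alpha cells. Alpha cells are the islet cells that secrete glucagon. Exomes, the protein-coding part of the genome read after capture, came from 11 pancreatic tumours and 6 pancreatic control tissue samples of 6 untreated mice. Mice 1, 2 and 6 had 2 tumours each, mouse 3 had 3, and mice 4 and 5 had 1 each. The sample labels give the tissue, the mouse number and the standard chow that all animals received. Genotype, strain and age of each mouse are not in these labels, nor is the cell type within each tumour. The labels name a human exome capture kit for these mouse samples.

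Signalling through the glucagon receptor makes the liver take up and break down amino acids. When that receptor is lost, amino acids build up in the blood, and alpha cells respond by dividing, a response that in mice depends on mTORC1, the nutrient-sensing kinase complex. The roles of the 5 genes are known from other work, and a call in one of them does not show that the calls arose in alpha cells. Mtor encodes the kinase itself, and Slc7a7 encodes y+LAT1, a transporter that exchanges cationic for neutral amino acids together with the heavy chain Slc3a2. Smad3 carries signals of TGF-beta and activin to the nucleus, Tet3 oxidises methylated cytosine in DNA, and Wrn is a helicase and exonuclease of the RecQ family that acts in DNA repair and replication.

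The calls lay in 3 tumours of 2 mice. Both tumours of mouse 1 carried the same 3 sites, in Slc7a7, Smad3 and Tet3, and tumor 3 of mouse 3 carried the sites in Mtor and Wrn. The other 8 tumours had no analysed call in any of the 5 genes, and none of the 5 sites was called in over 1 mouse, as 5 of the 258 sites (1.94%) were. These 3 tumours had 125 calls (tumor 2 of mouse 1), 108 calls (tumor 1 of mouse 1) and 17 calls (tumor 3 of mouse 3), where other tumours had 5 to 43. Read depth is unknown because the depth cells are empty, so a gene without a call is not shown to be unmutated and the sampling error of a fraction cannot be given. Of 402 lines of the table, 12 were empty in the copy used, and the tumours of these lines are unknown.

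**Figure D1:**
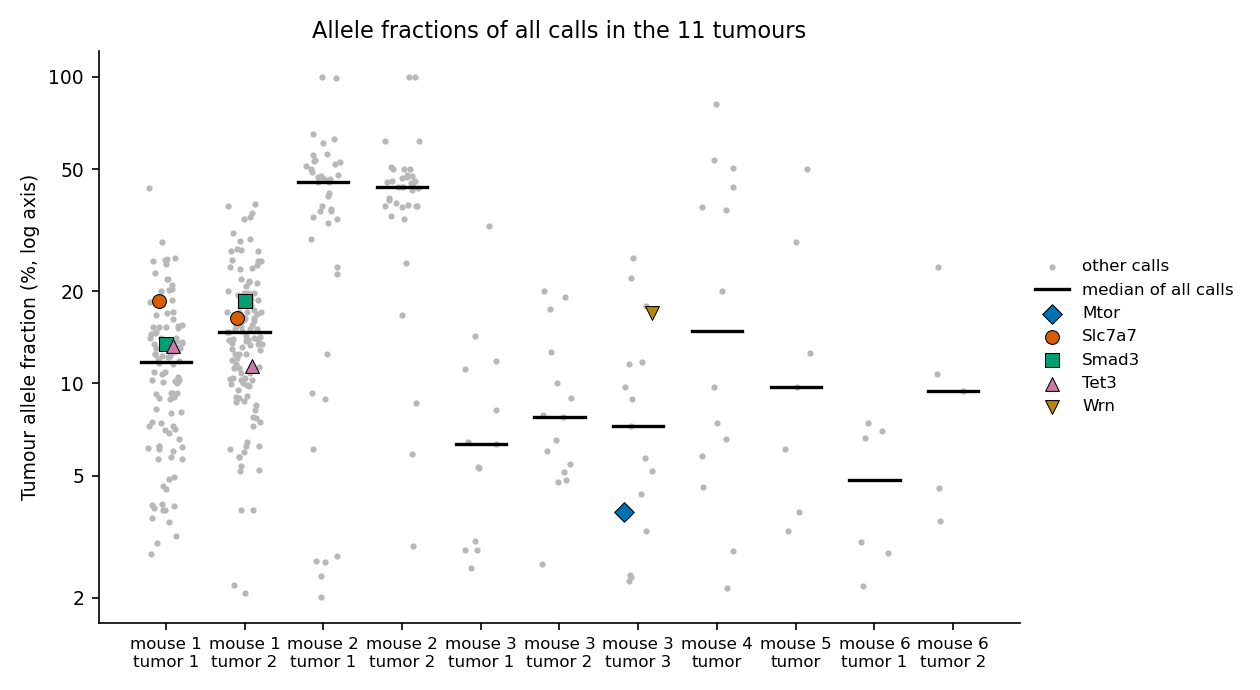
Tumour allele fraction of every analysed call, in percent on a log axis, by tumour. Grey points are other calls, black lines the median of each tumour, and coloured symbols the 5 genes. Wrn at 17.0% lies above and Mtor at 3.80% below the median of 7.29% in tumor 3 of mouse 3, and Tet3 is the only one of the mouse 1 sites to lie below a median, in tumor 2.

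The kinase gene Mtor carried S1145P, a serine to proline change at residue 1145 of 2549 (44.9% along the protein). The site is position 148484660 on chromosome 4, in exon 23 of 58 (gene ENSMUSG00000028991). The protein begins with a long stretch of HEAT repeats, which bind partner proteins, and ends with the kinase domain; the residue belongs to the HEAT repeats by general knowledge, not by a deposited domain entry. Alternate reads made up 3.80% of the reads in tumor 3 of mouse 3, against 0 in the control of that mouse. This fraction lay above 4 of the other 16 calls of the tumour (25%, exact 95% interval 7.27 to 52.4), and was 0.469 times their median of 8.09%. The nearest protein-altering calls were F318I in Vmn2r57 at 4.35% and R831H in Ganc at 3.31%.

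In the same tumour the helicase gene Wrn carried R799C, an arginine to cysteine change at residue 799 of 1401 (57% along the protein). It lies at position 33288886 on chromosome 8, in exon 20 of 34 (ENSMUSG00000031583). Wrn has its exonuclease at the amino end and its RecQ helicase core in the middle, the part in which this residue falls by general knowledge. The alternate allele was at 17.0% in the tumour and at 0 in the control. This was the fourth highest fraction of the tumour, above 13 of the other 16 calls (81.2%, exact 95% interval 54.4 to 96). It was 2.61 times the median of the other calls (6.50%), and the highest fraction was 25.7%, for I46S in Olfr186.

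Wrn and Mtor thus differed within 1 tumour, with a fraction 4.47 times as high for Wrn as for Mtor, a difference of 13.2 percentage points. Whether this exceeds the sampling error of the reads cannot be given without depth. Neither site had a call in the other 2 tumours of mouse 3. That is the common state in this mouse, where 1 of 44 sites (2.27%) was called in over 1 tumour, and 15 of the 17 calls of tumor 3 (88.2%) were found in no other tumour. A control fraction of 0, as both sites had, was likewise shared by 15 of the 17 calls (88.2%).

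The transporter gene Slc7a7 carried P409S in both tumours of mouse 1, a proline to serine change at residue 409 of 510 (80.2% along the protein). The site is position 54372963 on chromosome 14, in exon 8 of 10 (ENSMUSG00000000958). In people, loss of this gene causes lysinuric protein intolerance, a defect of cationic amino acid transport. The fraction was 16.3% in tumor 2 and 18.6% in tumor 1, against 0 in the control. In tumor 2 it lay above 75 of the other 124 calls (60.5%, exact 95% interval 51.3 to 69.1), and in tumor 1 above 92 of the other 107 (86%, interval 77.9 to 91.9). Among all calls Slc7a7 was therefore above the middle of the order in both tumours, at rank 50 of 125 in tumor 2 and rank 16 of 108 in tumor 1. Against only the sites common to both tumours, it lay near the middle in tumor 2, above 52.2% (interval 41.4 to 62.9), and above 84.4% in tumor 1.

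Smad3 carried K33E, which replaces a positively charged lysine by a negatively charged glutamate at residue 33 of 425 (7.76% along the protein). The residue is in the MH1 domain by general knowledge, the amino-terminal part of the protein that binds DNA. The site is position 63757581 on chromosome 9, in exon 1 of 9, 413 bases inside the 5′ end of the gene (ENSMUSG00000032402). Its fraction was 18.6% in tumor 2 and 13.4% in tumor 1 of mouse 1, against 0.565% in the control. It lay above 89 of the other 124 calls in tumor 2 (71.8%, exact 95% interval 63 to 79.5) and above 68 of the other 107 in tumor 1 (63.6%, interval 53.7 to 72.6).

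Smad3 was the only one of the 5 genes with alternate reads in the control. Of the 91 sites called in both tumours of mouse 1, 14 (15.4%) had such reads. Among the other 13 of these sites, the control fraction was lower than that of Smad3 in 6 and higher in 7, with a range of 0.141 to 1.28%. The control value of Smad3 was therefore in the middle of that range. The part of such reads in the Smad3 call was not tested.

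The demethylation gene Tet3 carried the frameshift Q788fs, an added base written c.2360dupG, in both tumours of mouse 1. The site is position 83402824 on chromosome 6, in exon 4 of 12 (ENSMUSG00000034832). The deposited residue number is 787 of 1803 (43.6% along the protein), 1 less than in the name of the change, and matches the codon that base 2360 falls in. After it come 1016 residues (56.4%) and 8 further exons. The catalytic domain, which oxidises 5-methylcytosine, lies in the carboxy-terminal part of the protein. The length of the new reading frame before a stop codon was not analysed here.

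The Tet3 fraction was 11.4% in tumor 2 and 13.2% in tumor 1, against 0 in the control. It lay above 40 of the other 124 calls in tumor 2 (32.3%, exact 95% interval 24.1 to 41.2), and above 67 of the other 107 in tumor 1 (62.6%, interval 52.7 to 71.8). Tet3 was thus below the median of the other calls in tumor 2 (0.774 times) and above it in tumor 1 (1.14 times). Against only the sites common to both tumours, its place in tumor 2 was lower still, above 22.2% of them.

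Tet3 was 1 of 13 sites with a frameshift or stop codon in the series and 1 of 6 in mouse 1. Of those 6, 4 were called in both tumours. It had the longest protein of the 13, with 1803 residues, the next being 1250. The change came earlier along the protein, as a share of its length, at 7 of the other sites and later at 5.

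**Figure D2:**
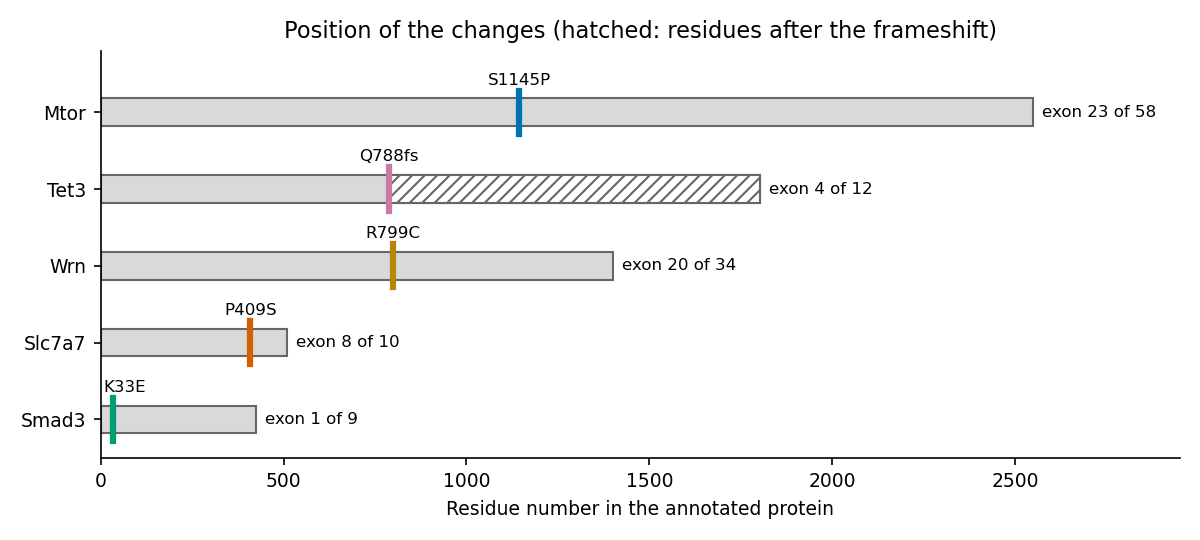
Position of each change along its annotated protein, with the residue number on the horizontal axis and 1 bar per gene drawn to its full length. Coloured lines mark the changes, hatching marks the 1016 residues of Tet3 after its frameshift, and the exon is given beside each bar. The changes lie between 7.76% (Smad3) and 80.2% (Slc7a7) of the length.

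The order of the 3 sites differed between the tumours of mouse 1. In tumor 2 the fractions ran from Smad3 (18.6%) over Slc7a7 (16.3%) to Tet3 (11.4%), and in tumor 1 from Slc7a7 (18.6%) over Smad3 (13.4%) to Tet3 (13.2%). Smad3 and Tet3 were 7.22 percentage points apart in tumor 2, where they held ranks 36 and 85, and 0.157 points apart in tumor 1, where they held the neighbouring ranks 40 and 41. Tet3 was lowest of the 3 in both tumours. Means over the 2 tumours were 17.5% ± 1.61 for Slc7a7, 16.0% ± 3.69 for Smad3 and 12.3% ± 1.30 for Tet3 (SD, n = 2 tumours of 1 mouse). The ranges of Slc7a7 and Smad3 overlapped, and the lower tumour of Smad3 lay 0.157 points above the higher tumour of Tet3. The 2 tumours share an animal and a control, so they are no independent replicates.

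Most shared sites of mouse 1 had a higher fraction in tumor 2 than in tumor 1, 72 of 91 (79.1%), and the median ratio of tumor 2 over tumor 1 at the 88 sites outside the 5 genes was 1.33 (quartiles 1.11 and 1.76). Smad3 followed this pattern with a ratio of 1.39, above 50 of the 88 (56.8%, exact 95% interval 45.8 to 67.3). Slc7a7 and Tet3 went the other way, with ratios of 0.878 and 0.861. These ratios lay above 11 of the 88 sites for Slc7a7 (12.5%, interval 6.41 to 21.3) and above 10 for Tet3 (11.4%, interval 5.59 to 19.9). In absolute terms the shifts from tumor 1 were 5.22 percentage points for Smad3, -2.28 for Slc7a7 and -1.84 for Tet3, tumor 2 minus tumor 1. The median absolute shift of the 88 sites was 4.18 points, with quartiles of 2.20 and 7.05. The shifts of Slc7a7 and Tet3 were thus small for shared sites, and lay on the side that 16 of the other 88 sites showed.

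**Figure D3:**
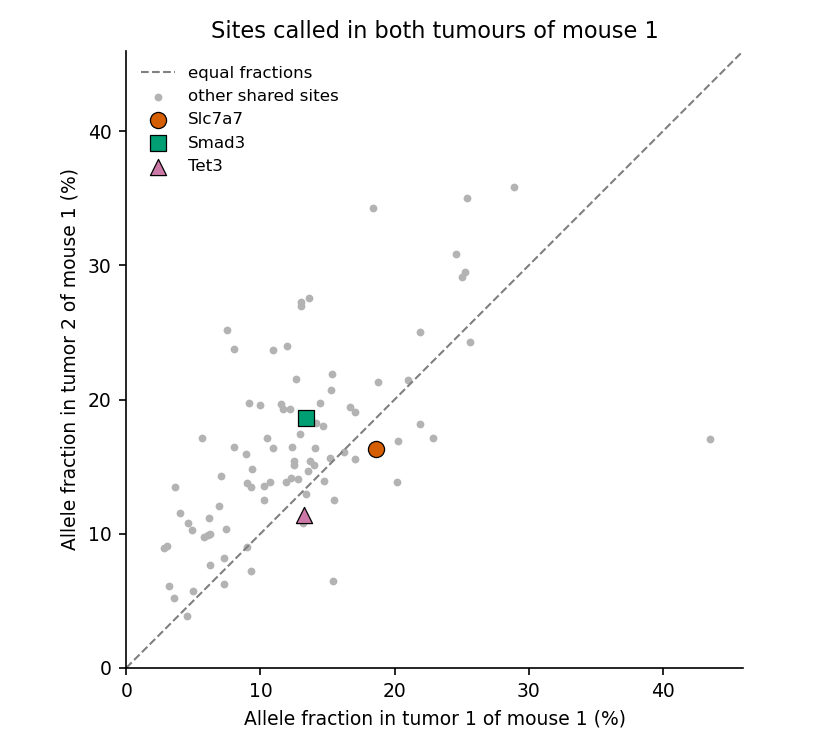
Allele fraction in percent in tumor 2 (vertical) against tumor 1 (horizontal) at the 91 sites called in both tumours of mouse 1. The dashed line marks equal fractions. Most sites and Smad3 (18.6 and 13.4%) lie above it, while Slc7a7 (16.3 and 18.6%) and Tet3 (11.4 and 13.2%) lie below it.

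Presence in both tumours was also the common state in mouse 1, where 91 of 142 sites (64.1%) were shared. The median fraction was 16.0% at shared sites and 10.4% at the 34 unshared sites in tumor 2, and 12.5% and 6.60% (17 unshared sites) in tumor 1. Slc7a7 and Smad3 exceeded the shared median in both tumours. Tet3 exceeded it in tumor 1 only.

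The same tumours of mouse 1 carried calls in antibody genes and in genes known for mutations in human B-cell lymphoma, which are named here after their values were seen. Immunoglobulin genes held 17 of the 142 sites of mouse 1, of which 12 were called in both tumours, and 0 sites in the other mice. Their fractions ran from 3.88 to 19.8% in tumor 2 (median 13.2%) and from 3.64 to 17.0% in tumor 1 (median 9.93%). Slc7a7, Smad3 and Tet3 fell within these ranges except for Slc7a7 in tumor 1, at 18.6%. Of the lymphoma genes, Gna13, a G protein subunit gene, carried S31P at 30.8% in tumor 2 and 24.6% in tumor 1, and Klhl6 carried L88P at 11.2 and 6.20%. Splice donor changes lay in Fas, a death receptor gene, at 27.5 and 13.6%, and in Pim1, a kinase gene, at 8.20 and 7.29%. The control fraction of these 4 sites was 0. They are not all the calls of this kind, and Tnfrsf14, another such gene, was called in tumor 1 only, at 15.3%. Allele fractions do not show which cells carried the Slc7a7, Smad3 and Tet3 changes, and the part of B-lineage cells in these calls was not tested.

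Features that did not enter the choice of the genes were shared to different degrees. All 4 missense changes fell on the first base of a codon, as did 104 of 216 missense sites of the series (48.1%). Those of Slc7a7 and Wrn were C-to-T changes and those of Mtor and Smad3 T-to-C changes, when read on the strand that carries the pyrimidine. These are the classes with most sites, with 64 and 61 of 258 (24.8 and 23.6%). For Wrn the genetic code leaves 2 codons, CGC and CGT, so the changed C stood before a G in the transcript. This is the CpG setting in which methylated cytosine is known to mutate readily. The code fixes that setting for any arginine to cysteine exchange by a C-to-T change, and its part in the Wrn call was not tested. In Slc7a7 the proline codon places a C after the changed base. Tet3 was 1 of 4 insertions or deletions in mouse 1.

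By BLOSUM62, a matrix in which low scores mark exchanges that are rare between related proteins, R799C in Wrn scored -3, the lowest value found, which 34 of 216 missense sites had (15.7%). S1145P in Mtor and P409S in Slc7a7 scored -1, a value that 45 sites had, and K33E in Smad3 scored 1, above 149 of the sites (69%). An arginine to cysteine exchange occurred at 8 missense sites of the series and a serine to proline exchange at 7, so the kinds of exchange seen in Wrn and Mtor were not confined to them. The columns for predicted effects and protein domains held no entry for the 5 genes.

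Mtor, Tet3 and Wrn encode long proteins. Their 2549, 1803 and 1401 residues exceeded those of 182, 173 and 165 of 192 called genes with a length, whose median was 508. Slc7a7 and Smad3, with 510 and 425 residues, were near that median. On the genome, Wrn (151 kb), Smad3 (111 kb), Mtor (109 kb) and Tet3 (94.8 kb) were longer than 88.2 to 93.4% of 21900 coding genes of the reference, and Slc7a7 (50.6 kb) longer than 77.7%. In an exome, a longer protein-coding sequence offers more places in which a call can fall. The span on the genome also counts sequence outside the protein-coding part. The part of length in these calls was not tested. No other called site lay within 1 Mb of any of the 5, the nearest in the same mouse being 3.30 Mb from Slc7a7, in Olfr750.

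All 5 sites had a deposited quality score, which 138 of 258 sites (53.5%) had, and none had an identifier of a variant database, which 35 sites (13.6%) had. The scores were 659 for Tet3, 518 for Smad3, 174 for Wrn, 153 for Slc7a7 and 84 for Mtor, where the median of the scored sites was 234 (quartiles 136 and 468). Mtor was above 6 of the 137 other scored sites (4.38%), while Tet3 was above 118 (86.1%) and Smad3 above 107 (78.1%). Of the 8 calls 6 were in the deposited tier 1, against 337 of 390 calls in all (86.4%). The calls in tier 2 were Slc7a7 in tumor 2 and Tet3 in tumor 1. How score and tier were made is not given in the sources used here, and they are not read as a rank of quality.

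**Figure D4:**
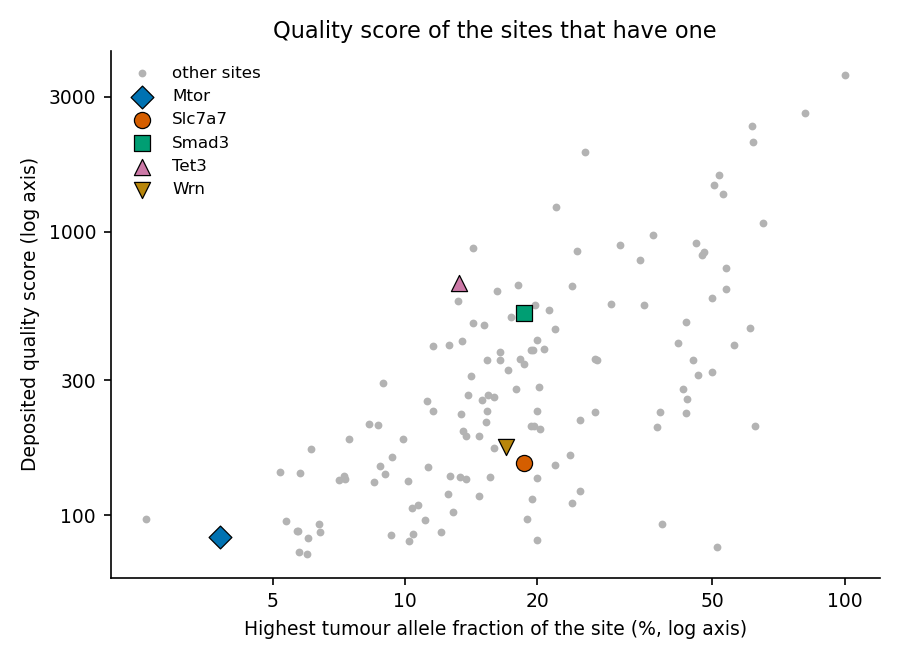
Deposited quality score against the highest tumour allele fraction of the site, in percent, both on log axes, for the 138 sites with a score. Mtor (84, at 3.80%) sits at the lower left, Tet3 (659) and Smad3 (518) in the upper part, and Slc7a7 (153) and Wrn (174) below the median of 234.

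The pathways around the 5 genes were read from lists of known members. The lists do not hold every gene of a pathway, and among the genes counted in each list built around one of the 5, that gene was the only one with a protein-altering call. Mtor was 1 of 36 genes of the mTORC1 complex and its inputs, and the remaining 35, among them Rptor, Tsc1, Tsc2, Depdc5 and the Rag GTPase genes, had none. Slc7a7 was 1 of 23 amino acid transporters, and neither its heavy chain Slc3a2 nor Slc38a5, a glutamine transporter known to rise in alpha cells of mice without glucagon receptor signalling, had a call. Smad3 was 1 of 29 genes of TGF-beta, activin and BMP signalling, with no call in its partner Smad4 or in Smad2. Outside that list, and named after its values were seen, Eng, which encodes the TGF-beta and BMP co-receptor endoglin, carried R510Q in mouse 1 at 16.5% in tumor 2 and 12.3% in tumor 1, against 0 in the control. Tet3 was 1 of 17 genes of DNA methylation and demethylation, with no call in Tet1, Tet2 or the methyltransferase Dnmt3a. Wrn was 1 of 25 RecQ helicases and partners, with no call in Blm. Other genes near these themes but outside the lists also had calls, and some are named after their values were seen. Examples in mouse 1 were the DNA repair genes Fancb (18.2% in tumor 2, 21.9% in tumor 1) and Ercc6l2 (E115*, 6.25% in tumor 2). Others there were the histone gene H2afx (20% in tumor 1) and the transporter gene Slc17a6 (R385*, 3.92% in tumor 1). The chromatin genes Ing2 and Morc2a had calls in both tumours of mouse 1. Chromatin genes were also called in mouse 2, with Setmar at 37.8% in tumor 2 and 41.9% in tumor 1, and Jmjd1c at 50 and 53.7%. Gab1, an adaptor of growth factor receptors, had a call at 11.6% in tumor 3 of mouse 3.

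Nearer to the receptor itself, 0 of 18 genes of glucagon receptor and cAMP signalling, Gcgr, Gcg and Gnas among them, and 0 of 13 alpha cell identity genes had a call. A call marks a difference between a tumour and the control of its mouse. An inherited change, carried by both, would not be expected in the list, though how the calls were filtered is not given. The state of Gcgr in these mice is therefore not shown here. Of 19 genes known from pancreatic neuroendocrine tumours, Mtor alone had a call, and Men1, Daxx and Atrx had none. Over all lists 5 of 174 genes were called. Of the 21900 coding genes of the reference, 181 (0.826%) had a protein-altering call. Since the lists were built around genes known to be called, nothing is read from this comparison, and at this share lists of 13 or 18 genes with 0 calls are not set apart from other genes.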

How the data were processed

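Exome sequencing of 11 tumours and 6 controls was deposited as 1 table of calls. BWA, GATK and GRCh38 are named, without versions or roles, per the submitters' processing notes. Per the file headers, each call comes from Strelka and carries mouse Ensembl identifiers. GRCh38 is a human build. All 5 sites lie inside the span of their gene in the GRCm38 RefSeq table used here, so positions are given as deposited and read as GRCm38. How the deposited calls were filtered is not given in the sources used here, and 0 synonymous sites are listed.

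The allele fraction is deposited as a fraction of reads with the alternate allele, in the tumour and, read from the column name, in the matched control. It is printed as a percentage. The quality score is printed as deposited. Exon numbers were read from the deposited cells, 330 of which had been turned into dates. Read as month and day, or month and year, all 330 gave an exon number no higher than the number of exons, which the opposite order would not.

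Tumour and mouse were taken from the sample labels. Each fraction was ranked among the other calls of its tumour. Exact 95% intervals (Clopper-Pearson) treat the other calls or sites as independent draws. They are in fact a complete count, and calls of 1 tumour share a library. The intervals therefore reflect only how many calls were compared, and do not cover the sampling error of the reads behind a fraction. Calls counted as protein-altering changed a residue, a stop or start codon, the reading frame or a splice donor or acceptor. BLOSUM62 and the genetic code came from Biopython 1.88, run under Python 3.11.15 with SciPy 1.17.1. Ranking was tested on simulated data. Called genes were matched to the reference by symbol or synonym, and 15 had no match. No sequence of these proteins was used here. The members and lists were chosen with earlier results of these data known, and some genes of the lists are not reported here and not counted. The genes named by rule besides the members are those of the lists, the neighbouring and the highest calls in the same tumour. Any call within 1 Mb of a member's site was also to be named, but there was none. Olfr750, the nearest call to Slc7a7 in the same mouse, was named outside this rule. Gna13, Klhl6, Fas, Pim1, Tnfrsf14, Eng, Fancb, Ercc6l2, H2afx, Slc17a6, Morc2a, Setmar, Jmjd1c and Gab1 were also named outside this rule, after their values were seen. Rankings were repeated on restricted sets of calls. No hypothesis test was run.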

Additional observations from a re-analysis of the deposited data

How the results depend on the processing

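Places in the order of fractions were recomputed against protein-altering calls, tier 1 calls, calls with a control fraction of 0, calls of no other mouse, calls without a database identifier, calls outside immunoglobulin genes and, in mouse 1, sites of both tumours. The restricted sets hold mostly the same calls as the full set, so agreement was largely fixed in advance. For Mtor and Wrn all 16 other calls were protein-altering, so that restriction changed nothing. The intervals were also wide there, 7.27 to 52.4% for Mtor. Of the 54 recomputed values, 53 stayed inside the interval of the reported one. The exception was Tet3 in tumor 2 of mouse 1, above 22.2% of sites of both tumours, where the reported share was 32.3%. The ranges were 14.3 to 25% for Mtor, 78.6 to 81.2% for Wrn, 52.2 to 63.3% for Slc7a7 in tumor 2 and 84.2 to 86.6% in tumor 1, and 67.8 to 75% for Smad3 in tumor 2 and 60 to 65.9% in tumor 1. All 9 recomputed places of the ratios stayed inside their intervals, with the same limit of overlapping sets. Without 1 of the tumours of mouse 1 the mean fraction was 16.3 to 18.6% for Slc7a7, 13.4 to 18.6% for Smad3 and 11.4 to 13.2% for Tet3. The number of called genes was 2 without mouse 1 and 3 without mouse 3, by construction, and 4 at fractions of at least 5 or 10% (without Mtor) or with a control fraction of 0 (without Smad3). No paired analysis was possible because sites enter the table for being higher in the tumour than in its control, so a test of those pairs carries no information, and the tumours of mouse 1 form only 1 pair; the paired values are given as descriptions. Depth, which would bound each fraction, is unknown.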
